A study of Arabidopsis thaliana with 28 samples.

Results

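AT2G43570, named CHI in the annotation, and AT2G43590 are neighbouring Arabidopsis thaliana genes of the chitinase family on chromosome 2. They are 2 genes with 1 probe set each, out of 22746 probe sets on the array once its control probe sets are left out. The pair was selected on measured values, since AT2G43590 was higher in many transgenic lines than in their control in earlier results of the same data. The signals of the lines against their control therefore chose it, and they are given below as a description, with no test. The cold treatment took no part in the choice, and it was tested.

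Chitinases cut chitin, a polymer of fungal cell walls and insect cuticles that plants do not make. Many plant chitinases are secreted proteins of the pathogenesis-related class, and their genes respond to infection and to defence hormones. In winter rye, chitinases that accumulate in the leaf apoplast in the cold also bind ice, so the family has been studied in cold acclimation as well as in defence.

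The study compared wild-type (WT) Col-0 plants with transgenic plants that overexpress cold-induced transcription factors. Plants were grown for 12 days on sterile agar at 22°C at a constant light intensity near 100 µmol (photons per square metre and second), and RNA came from the entire aerial part. It was hybridised to 28 single-colour arrays, 2 for each of 14 groups. The values are log2 signals as deposited, from a floor of 2.13 to a highest value of 14.94, so a difference of 1 is a 2-fold difference in signal.

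In the cold experiment, WT plants kept at 22°C (WT_warm) were compared with WT plants moved to 4°C for 24 h at about 30 µmol (WT_cold), so the cold plants also had dimmer light. All other groups stayed at 22°C. They were a second WT group (WT_control), labelled as the control of the lines, and 11 overexpressing lines. The lines are CRF2, CRF3, DEAR1, ERF5 and RAV1 of the AP2/ERF type, the zinc finger factors CZF1, ZAT10 and ZF (AT4G29190), MYB44, MYB73, and the heat shock factor HSFC1. The promoter of the transgenes and the number of independent transformants per factor are not given in the sources used here. The labels call the 2 arrays of a group biological replicates without saying how plants were divided. P-values therefore measure the spread between such arrays, and 2 arrays a group limit the precision of every value.

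Before any comparison, the arrays fell into 2 sets by their median signal over all probe sets. The 6 arrays of WT_warm, WT_cold and CZF1 had medians of 5.77 to 5.84, and the 22 arrays of the other 11 groups had medians of 5.33 to 5.48. WT_control thus lay 0.42 below WT_warm at the median probe set, although both are WT at 22°C, and CZF1 lay 0.43 above WT_control. The arrays of CRF3 differed from each other by at least 2 on the log2 scale in 874 probe sets, 5.49% of the 15916 that passed the signal filter. Every other group had fewer such probe sets, from 0 to 145. The leaf marker RCA (Rubisco activase) had group means of 13.49 to 14.22, and of the root markers PYK10 had 11.58 to 13.17 and EXPA7 had 3.72 to 5.94. Only 1 of 13 listed leaf markers and 2 of 12 root markers were named on the array, so the labelled tissue could be checked only that far. The 2 root markers differed, PYK10 being high in every group and EXPA7 low, so they did not settle whether the tissue was aerial only. In RNA from whole shoots, fewer cells of a type and less RNA per cell cannot be told apart.

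Both genes passed the signal filter, a log2 signal over 4 in at least 2 arrays. They differed in how well the 2 arrays of a group matched. AT2G43570 had a pooled within-group SD of 1.36, and 0.0503% of the probe sets that passed the filter had a larger one. AT2G43590 had a within-group SD of 0.43, exceeded by 11% of probe sets, against a median of 0.26 over all of them. Without CRF3 the SD of AT2G43570 was 0.84. The means of the 14 groups spanned 4.26 for AT2G43570 and 5.63 for AT2G43590, ranges exceeded by 1.51% and 0.446% of probe sets, where the median probe set spanned 1.38.

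For AT2G43570, the 2 highest group means belonged to CRF3 and HSFC1. The CRF3 arrays read 4.91 and 10.68 (mean 7.80 ± 4.08, SD, n = 2), and the HSFC1 arrays 8.42 and 6.51 (7.47 ± 1.35). The high mean of CRF3 thus came from replicate 2, while both HSFC1 arrays lay above both arrays of the next group, DEAR1, at 5.58 and 5.92 (5.75 ± 0.24). From DEAR1 downwards, no group was separated from its neighbour in the order by both arrays.

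In that stretch of the order, the AT2G43570 signals of 4 lines were 4.01 and 6.25 in MYB73, 4.72 and 5.17 in CRF2, 5.89 and 3.81 in RAV1, and 5.21 and 3.94 in ZF. CZF1 read 4.40 and 4.78, and ZAT10 3.89 and 4.55. Of these 6 lines, MYB73, RAV1 and ZF each held 1 array more than 1 unit above the other. The lowest lines were MYB44 at 4.09 and 3.66 and ERF5 at 4.03 and 3.37. All 3 WT groups sat in the lower part of the order, with 3.25 and 3.83 in WT_warm, 3.77 and 3.56 in WT_control, and 4.83 and 3.44 in WT_cold.

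AT2G43590 had a different order. CZF1 was highest at 9.50 and 9.16 (9.33 ± 0.24, SD, n = 2), followed by WT_cold at 8.45 and 8.26 (8.36 ± 0.13), ZAT10 at 8.02 and 7.79 (7.91 ± 0.16) and ERF5 at 7.66 and 7.68 (7.67 ± 0.01). Each of these 4 groups was separated from the next by both arrays. WT_warm, the fifth group in the order, read 7.59 and 6.88.

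The next 4 groups for AT2G43590 included overlapping neighbours. They were DEAR1 at 6.52 and 7.89, ZF at 7.33 and 7.02, MYB44 at 7.47 and 6.52, and RAV1 at 6.17 and 5.85. WT_warm overlapped DEAR1, DEAR1 overlapped ZF and ZF overlapped MYB44, while RAV1 lay apart from both of its neighbours. CRF3 read 5.81 and 5.60, MYB73 5.49 and 5.79, WT_control 4.61 and 5.04, HSFC1 4.46 and 5.18, and CRF2 4.10 and 3.30. CRF3 overlapped MYB73 and WT_control overlapped HSFC1, and both CRF2 arrays were below every other array.

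**Figure D1:**
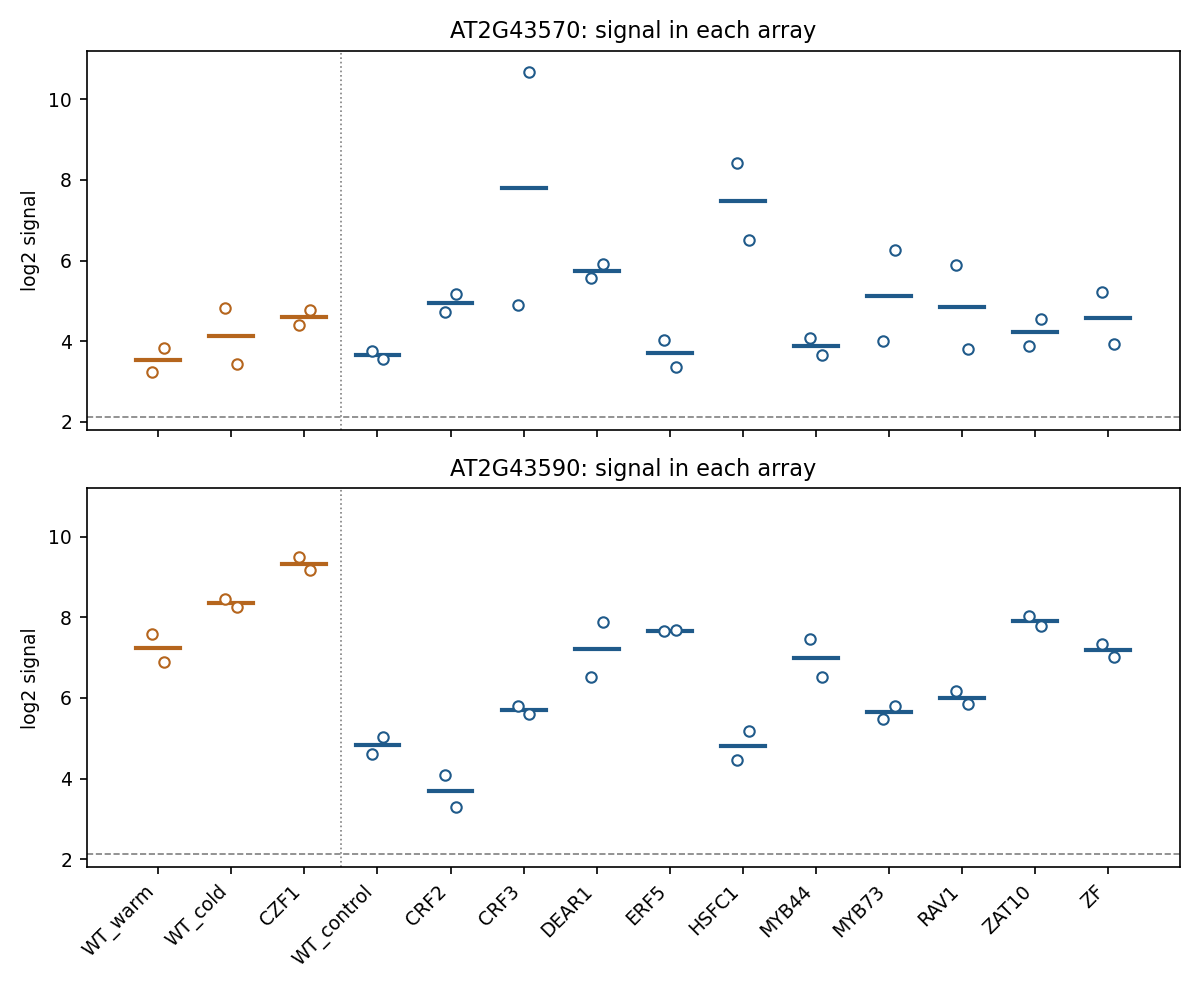
Deposited log2 signal of AT2G43570 and AT2G43590 on each of the 28 arrays, by group, with points for arrays and a line for the group mean. Orange marks the arrays of WT_warm, WT_cold and CZF1, which have the higher array medians, blue the other 11 groups, and the dashed line is the floor of 2.13. The AT2G43570 arrays of CRF3 stand at 4.91 and 10.68, and AT2G43590 runs from 3.30 in a CRF2 array to 9.50 in a CZF1 array.

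Against WT_control, AT2G43570 was furthest above in CRF3, by 4.13 ± 1.19 (log2 difference ± SE, a 17.5-fold higher signal), and in HSFC1, by 3.80 ± 1.19 (13.9-fold). The SE is the same for every line because the spread was pooled over all 14 groups. The differences were 2.09 in DEAR1, 1.47 in MYB73, 1.28 in CRF2, 1.19 in RAV1, 0.93 in CZF1, 0.91 in ZF, 0.56 in ZAT10, 0.21 in MYB44 and 0.04 in ERF5. Replicate 1 of CRF3 alone, at 4.91, was above both WT_control arrays but below replicate 2 by 5.77.

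Against the same 2 WT_control arrays, AT2G43590 was furthest above in CZF1, by 4.51 ± 0.39 (22.7-fold), in ZAT10, by 3.08 ± 0.39 (8.46-fold), and in ERF5, by 2.85 ± 0.39 (7.19-fold). It was higher by 2.38 in DEAR1, 2.35 in ZF, 2.17 in MYB44, 1.19 in RAV1, 0.88 in CRF3 and 0.82 in MYB73. HSFC1 differed from WT_control by 0.00, and CRF2 was lower by a log2 difference of -1.12 (2.18-fold lower). In the lines in which AT2G43570 was highest, CRF3 and HSFC1, AT2G43590 was thus within 1 unit of WT_control.

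Both arrays of the line lay above both WT_control arrays in 9 of 11 lines for each gene. For AT2G43570 the remaining lines, ERF5 and MYB44, overlapped WT_control. For AT2G43590 HSFC1 overlapped it and CRF2 lay below it. Of the 15916 probe sets past the signal filter, the same position, both line arrays above both control arrays, held for 22.3% in CRF2, 25.7% in CRF3, 65.8% in CZF1, 19.5% in DEAR1, 23.3% in ERF5, 27.1% in HSFC1, 30.5% in MYB44, 21.1% in MYB73, 26.7% in RAV1, 36.8% in ZAT10 and 35.5% in ZF. In at least 9 of the 11 lines it held for 686 probe sets, 4.31%. Since the lines chose the pair and share 1 pair of control arrays, nothing is read from these counts.

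The 2 genes were both above WT_control in 7 lines. Each was above it in 9 of 11 lines, which makes 7 the fewest lines they could share, so nothing is read from that count. In CRF3, HSFC1, MYB73 and CRF2 the log2 difference was larger for AT2G43570, in 6 lines it was larger for AT2G43590, and in RAV1 both were 1.19. Across the means of all 14 groups, the 2 genes had a Pearson r of -0.39, given as a description. It was -0.35 over the 11 groups without WT_warm, WT_cold and CZF1, and -0.36 over 10 groups when CRF3 was left out as well. These means share the array, its normalization and the transformants of each line.

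**Figure D2:**
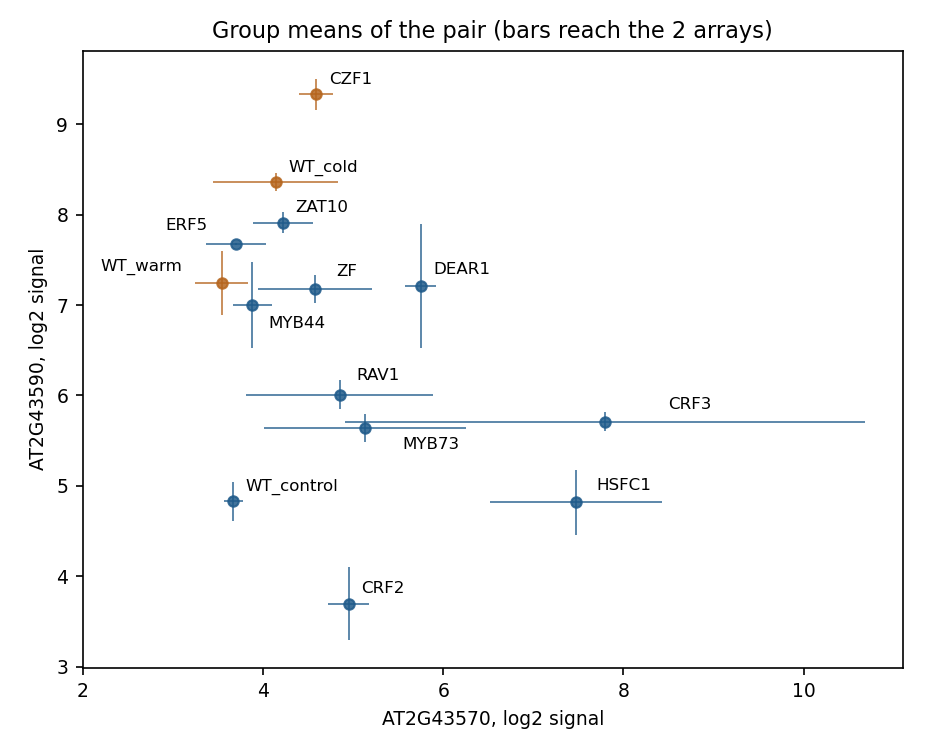
Group means of AT2G43570 (horizontal axis) against AT2G43590 (vertical axis), both as log2 signal, 1 point per group, with bars that reach the 2 arrays. Orange points are WT_warm, WT_cold and CZF1, blue points the other 11 groups. CRF3 and HSFC1 lie far to the right at AT2G43590 means of 5.71 and 4.82, and CZF1 is highest at 9.33 with an AT2G43570 mean of 4.59.

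The choice of WT group mattered for AT2G43590. Its WT_control arrays, 4.61 and 5.04, lay below both WT_warm arrays, 7.59 and 6.88, a difference of -2.41 (5.31-fold lower) where the median probe set differed by -0.42. Set against WT_warm instead, AT2G43590 was higher in 3 lines, CZF1 by 2.10, ZAT10 by 0.67 and ERF5 by 0.44. It was lower in 5 lines, with differences of -3.53 in CRF2, -2.41 in HSFC1, -1.59 in MYB73, -1.53 in CRF3 and -1.22 in RAV1. DEAR1, ZF and MYB44 overlapped WT_warm. The median probe set also lay below WT_warm in every line but CZF1, with differences from -0.3 in ZAT10 to -0.42 in HSFC1 and DEAR1. Beyond that median, the difference of AT2G43590 in RAV1 was -0.86. The share of all probe sets above or below WT_warm in this way was not counted, so nothing is read from these counts. The separation of the array sets and the difference between the WT groups cannot be told apart.

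AT2G43570 was nearly equal in the 2 WT groups, WT_control lying 0.13 above WT_warm with overlapping arrays. Against WT_warm it was higher by 4.26 in CRF3, 3.93 in HSFC1, 2.21 in DEAR1, 1.59 in MYB73 and 1.41 in CRF2. CZF1 was 1.05 higher, ZF 1.04 and ZAT10 0.68. Both arrays were above both WT_warm arrays in those 8 lines, and RAV1, ERF5 and MYB44 overlapped it. Here too the share of all probe sets in that position was not counted, and nothing is read from the count.

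**Figure D3:**
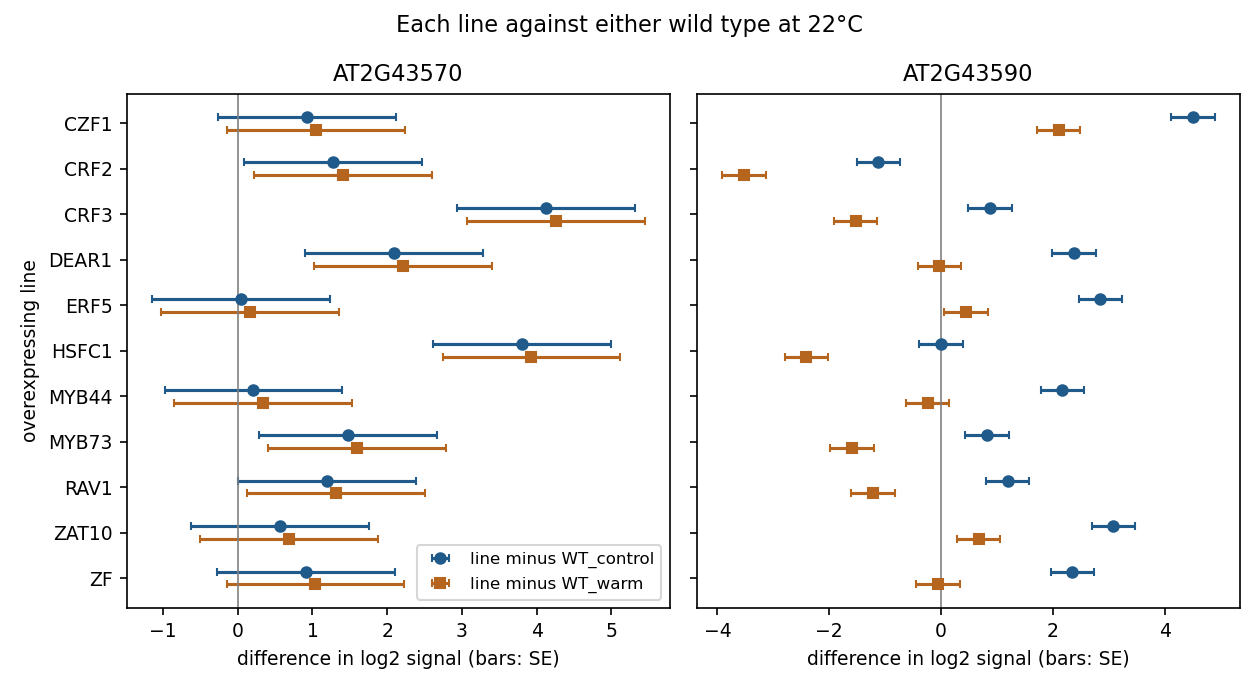
Log2 difference of each line from WT_control (blue circles) and from WT_warm (orange squares) for both genes, with SE bars from the fit over all groups. For AT2G43590 the 2 controls give different signs in several lines, such as CRF3 at 0.88 and -1.53, and for AT2G43570 they differ by 0.13.

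After 24 h in the cold, AT2G43590 rose and AT2G43570 did not pass the test. AT2G43590 went from 7.59 and 6.88 in WT_warm to 8.45 and 8.26 in WT_cold, both cold arrays above both warm ones. The log2 difference was 1.12 ± 0.39 (SE, 2.17-fold), with an adjusted p of 0.0406 by limma with Benjamini-Hochberg adjustment over all tested probe sets. Of the 15916 tested probe sets, 14.1% were called higher and 13.1% lower in the cold by the same rule. The call was close to the threshold, and it was lost without WT_warm replicate 2 (difference 0.77, adjusted p = 0.298), without WT_cold replicate 1 (adjusted p = 0.174) and without WT_cold replicate 2 (adjusted p = 0.103). It was also lost with only the WT_warm and WT_cold arrays in the fit (adjusted p = 0.0589), without the signal filter (adjusted p = 0.0763) and after quantile normalization (adjusted p = 0.0507).

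AT2G43570 read 3.25 and 3.83 in WT_warm and 4.83 and 3.44 in WT_cold, which overlapped. Its difference was 0.60 ± 1.19 (adjusted p = 0.764 by limma), and without WT_cold replicate 1 it was -0.10. With that SE, a change of the size seen for AT2G43590 was not detectable.

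In the RefSeq gene table (assembly TAIR10.1), the pair stands in a run of chitinase-family genes. Between AT2G43570 and AT2G43590 lies 1 protein-coding gene, AT2G43580, also of the chitinase family, and AT2G43590 is followed directly by AT2G43600, with AT2G43610 and AT2G43620 next. AT2G43580 was at or near the floor on every array, at most 2.21, and did not pass the filter.

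AT2G43620 was the neighbour most changed by cold. It read 5.69 and 5.79 in WT_warm and 9.31 and 8.77 in WT_cold, and rose by 3.30 ± 0.33 (limma adjusted p = 8e-07). In CZF1, the line in which AT2G43590 was highest, AT2G43620 read 7.59 and 6.88. That was 1.67 ± 0.33 above WT_control (limma adjusted p = 0.00106) and 1.5 ± 0.33 above WT_warm (limma adjusted p = 0.031), and the call against WT_warm was lost when the 2 sets of arrays were fitted apart (adjusted p = 0.127). In ZAT10 and ERF5, where AT2G43590 was next highest, AT2G43620 did not pass the test. Its difference from WT_control was 1.08 ± 0.33 in ZAT10 (limma adjusted p = 0.0656) and -0.83 ± 0.33 in ERF5 (limma adjusted p = 0.414). Over the group means, AT2G43590 and AT2G43620 had an r of 0.58 in 14 groups and 0.31 in the 11 groups without WT_warm, WT_cold and CZF1.

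AT2G43600 and AT2G43610 differed between the WT groups in the opposite sense to AT2G43590. AT2G43610 read 5.45 and 5.67 in WT_warm and 8.11 and 8.32 in WT_control, and AT2G43600 read 4.08 and 3.62 against 5.53 and 5.33. WT_control was therefore higher by 2.66 ± 0.56 for AT2G43610 and by 1.58 ± 0.37 for AT2G43600, where AT2G43590 was lower by 2.41 and AT2G43570 did not separate. These 2 genes had an r of 0.86 with each other over 14 groups and 0.62 over 11.

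**Figure D4:**
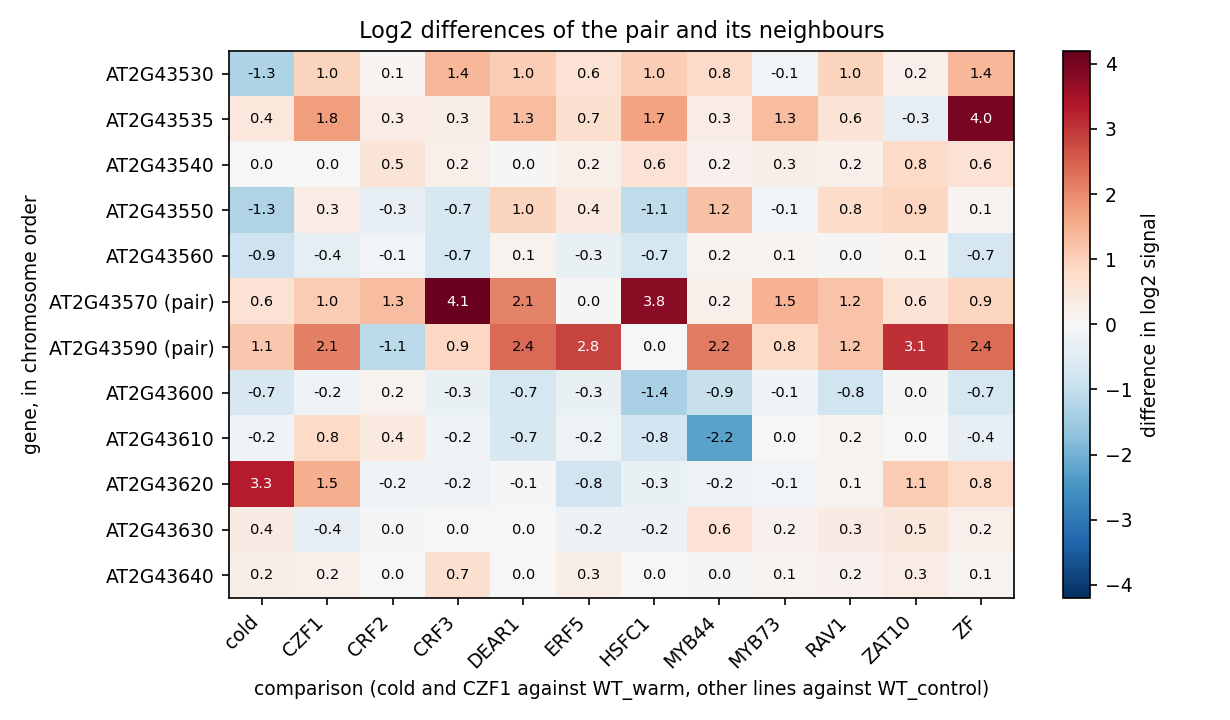
Log2 difference of the pair and its measured chromosome neighbours, in gene order, in the cold and in CZF1 against WT_warm and in the other lines against WT_control, with the value printed in each cell. AT2G43580, which did not pass the filter, is left out. The AT2G43620 row stands out in the cold column at 3.3 and the AT2G43535 row in ZF at 4.0, while the AT2G43570 and AT2G43590 rows are highest in different lines.

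Other genes were counted from lists, each tested by limma with Benjamini-Hochberg adjustment over the 15916 tested probe sets, line against WT_control. For calls and differences, "all probe sets" below means these 15916. The shares of all probe sets called in either direction were 36.3% in CZF1, 11.8% in HSFC1, 8.6% in CRF3, 7.12% in ZF, 4.66% in ZAT10, 1.69% in MYB44, 0.251% in DEAR1, 0.0817% in ERF5, 0.00628% in RAV1 and 0.0% in both CRF2 and MYB73. Against WT_warm, CZF1 had 1.04% called. At an unadjusted p under 0.05, limma had 985 probe sets in CRF2 and 448 in MYB73.

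Of 22 other listed chitinase-family genes, 13 were named on the array and 9 passed the filter. In the cold 1 rose, AT2G43620, and 0 fell, with a median difference of -0.25 where all probe sets had -0.02. Of all probe sets, 14.1% were called higher in the cold and 13.1% lower. Over the 11 lines there were 1 higher and 6 lower calls in 99 tests, or 7.07%, near the mean share of all probe sets called over the same lines, 6.41%. ChiC (AT4G19810), another chitinase, was lower in HSFC1, by a difference of -2.26 ± 0.45 (limma adjusted p = 0.0022, and 0.0519 without HSFC1 replicate 1). It was also lower in ZF, by -1.65 (limma adjusted p = 0.0316). AT2G43610 was lower in MYB44 by -2.24 (limma adjusted p = 0.0497) and in CZF1 by -1.84 (limma adjusted p = 0.017). AT2G43600 was lower in HSFC1 by -1.36 (limma adjusted p = 0.0186) and in CZF1 by -1.79 (limma adjusted p = 0.00149).

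Several of these calls turned on the WT group or on 1 array. Against WT_warm, AT2G43610 was 0.81 higher in CZF1 and 0.41 higher in MYB44, AT2G43600 was 0.22 higher in HSFC1 and differed by -0.21 in CZF1, and 0 of these passed the test. The ChiC call in ZF and the AT2G43610 calls were lost without any 1 of their 4 arrays. The AT2G43600 call in HSFC1 was lost without WT_control replicate 1, WT_control replicate 2 or HSFC1 replicate 1.

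Of 14 chromosome neighbours, 11 were named on the array and 10 passed the filter. They gave 12 higher and 4 lower calls in 110 tests over the lines (14.5%), of which 7 higher and 2 lower were in CZF1. Of all probe sets, a mean of 6.41% were called over the same lines, and 36.3% in CZF1. AT2G43600, AT2G43610 and AT2G43620 were in both lists. The 4 lower calls and the higher call of AT2G43620 in CZF1 were thus already counted among the chitinase-family genes. Against WT_warm, CZF1 had 1 higher call among the neighbours. AT2G43535, which encodes a small trypsin inhibitor-like protein, read 10.11 and 10.22 in ZF against 6.0 and 6.34 in WT_control, higher by 4.00 ± 0.48 (limma adjusted p = 0.000255). It kept this call under every alternative run. AT2G43530, of the same small-protein class, fell in the cold, by a difference of -1.31 ± 0.28 (limma adjusted p = 0.00156). Its highest line difference was in CZF1, 2.06 (limma adjusted p = 4.96e-05), a call kept without any 1 array but lost against WT_warm, where it was 0.95 (adjusted p = 0.114). It was also higher in CRF3 by 1.40 (limma adjusted p = 0.00947), in ZF by 1.39 (limma adjusted p = 0.00584) and in HSFC1 by 1.04 (limma adjusted p = 0.018). The call in each of these 3 lines was lost without WT_control replicate 1 and against WT_warm. Leaving out any 1 of the 4 arrays lost the HSFC1 call, as did 3 of the 4 arrays in CRF3 and 2 of the 4 in ZF. AT2G43535 was also higher in CZF1, by 2.24 (limma adjusted p = 0.00215) but by 1.76 against WT_warm (adjusted p = 0.0897). In HSFC1 AT2G43535 was higher by 1.69 (limma adjusted p = 0.0275), a call lost without any 1 of the 4 arrays.

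Among pathogenesis-related, thaumatin-like and defensin genes, 14 of 14 listed were named and 10 passed the filter. In the cold 2 rose, PDF2.1 (AT2G02120) by 2.99 ± 0.65 (limma adjusted p = 0.00197) and LCR69 (AT2G02100) by 1.63 ± 0.29 (limma adjusted p = 0.00043), both defensin-like, and 0 fell. Of all probe sets, 14.1% were called higher in the cold and 13.1% lower. Over the lines there were 5 higher and 4 lower calls in 110 tests (8.18%), near the mean share of all probe sets called, 6.41%. PDF2.1 was higher in 3 lines, by 2.61 in CZF1 (limma adjusted p = 0.00518), 2.48 in ZAT10 (limma adjusted p = 0.0342) and 3.04 in ZF (limma adjusted p = 0.00867). Each of these calls was lost against WT_warm, with differences of 1.08, 0.95 and 1.51, and the PDF2.1 calls also turned on single arrays, with an adjusted p of up to 0.0774 in CZF1, 0.224 in ZAT10 and 0.0898 in ZF when 1 array was left out. OSM34, an osmotin of the thaumatin-like class, was 2.13 higher in CRF3 (limma adjusted p = 0.0401) but 1.15 higher without CRF3 replicate 2 (adjusted p = 0.58). In HSFC1, the thionin gene AT1G66100 read 2.43 and 5.95 against 8.43 and 8.70 in WT_control, a difference of -4.37 ± 0.73 (limma adjusted p = 0.000474). Its call was kept without any 1 array, with a difference of -2.61 without HSFC1 replicate 1, and against WT_warm (-5.22). It was lost with only the HSFC1 and WT_control arrays in the fit (adjusted p = 0.113). In ZF, PR-1-LIKE (AT2G19990) was lower by -3.27 ± 0.73 (limma adjusted p = 0.0113) and AT2G19970, from the same list, by -2.93 ± 0.78 (limma adjusted p = 0.0296). Both ZF calls were lost without any 1 of the 4 arrays. PR-1-LIKE was also lower in HSFC1, by -2.88 (limma adjusted p = 0.0129), but by -1.04 against WT_warm (adjusted p = 0.253). That call was also lost without WT_control replicate 1 (adjusted p = 0.0746), WT_control replicate 2 (0.0824) or HSFC1 replicate 2 (0.0878).

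Of 11 listed genes of chitin perception and beta-1,3-glucanases, which cut another fungal wall polymer, 2 were measured. AT4G16260, of the beta-1,3-glucanase family, read 10.62 and 9.82 in HSFC1 against 7.49 and 8.04 in WT_control, higher by 2.46 ± 0.73 (limma adjusted p = 0.034). That call was lost without any 1 of the 4 arrays. It was the only call for this list in 11 lines, 1 of 22 tests (4.55%), where all probe sets had a mean share of 6.41%.

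The hormone lists gave 0 calls by limma in any line or in the cold, and few of their genes were named, 1 of 18 for salicylic acid and 3 of 12 for jasmonate and ethylene. Of 36 limma tests of the 3 genes past the filter in 12 comparisons, 5 had an unadjusted p under 0.05, namely GRX480 in CRF3 and PDF1.2 and PDF1.2b in DEAR1 and ERF5. That is 13.9% of the tests, where all probe sets had a mean of 19% over the same comparisons. GRX480, a glutaredoxin induced by salicylic acid, read 3.49 and 7.97 in CRF3, so replicate 2 was high for it as for AT2G43570. PDF1.2, a defensin induced by jasmonate and ethylene, read 10.89 and 10.54 in ERF5 against 5.82 and 5.37 in WT_control (limma adjusted p = 0.104). In DEAR1 it read 11.78 and 6.59, with AT2G43590 at 6.52 and 7.89 on the same arrays, so the array that was high for PDF1.2 was the lower for AT2G43590.

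The genes with the pattern most like AT2G43570 were AT1G68620 (r = 0.894 over 14 group means), AT2G43660 (0.882), AT5G06730 (0.873), AT4G29780 (0.860) and AT4G26060 (0.846), out of 8735 genes compared. They were chosen by r over these same means, so shared highest groups follow in part from the choice. AT1G68620 and AT2G43660 passed the signal filter only through arrays of CRF3 and HSFC1. In all 5 the 2 highest groups were CRF3 and HSFC1. AT4G29780 hardly varied, with group means from 4.01 in RAV1 to 4.51 in CRF3. It read 4.11 on both WT_control arrays, 4.11 and 4.9 in CRF3, and 4.66 and 4.11 in HSFC1, so its high groups each rest on 1 array. Replicate 2 of CRF3 was above replicate 1 in all 5, an order that was not counted over all probe sets. AT1G68620, for example, read 3.36 and 8.65 in CRF3 and 6.72 and 5.77 in HSFC1. Without CRF3 their r with AT2G43570 was 0.823, 0.815, 0.883, 0.752 and 0.752 over 13 groups. AT2G43660 lies on the same chromosome with 8 protein-coding genes between it and AT2G43570. With Spearman's correlation, 1 of the 5 genes stayed among the 5 most alike.

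Most like AT2G43590 were AT5G61830 (r = 0.869), AT5G18590 (0.862), AT1G07050 (0.855), XERICO (0.833) and AT3G48070 (0.832). XERICO is a RING protein linked to abscisic acid. The 5 genes were chosen by r over these same means, so shared high groups and a shared WT order follow in part from the choice. In all 5 WT_control was below WT_warm, as it was at the median probe set, with a difference of -0.42. In 4 the 2 highest groups were the same as for AT2G43590, CZF1 and WT_cold. AT5G18590 read 7.82 and 7.53 in WT_control, 8.74 and 8.62 in WT_warm and 9.08 and 8.93 in CZF1. Over the 11 groups without WT_warm, WT_cold and CZF1, the r of the 5 genes was 0.783, 0.829, 0.746, 0.803 and 0.728. With Spearman's correlation, 0 of the 5 stayed among the 5 most alike.

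By 2 of 3 measures of RNA quality, most lines differed from WT_control. The GAPDH control probe sets for the 3′ and 5′ ends differed by 0.75 and 0.91 in WT_control and by up to 2.04 over all arrays, with both arrays above WT_control in 10 of 11 lines. The same measure for ubiquitin was above WT_control in 8 lines, and that for actin in 3. For GAPDH the other WT groups also lay above WT_control, at 1.11 and 1.83 in WT_warm and 1.3 and 1.23 in WT_cold. The WT_control value of 0.75 was the lowest of all arrays. For ubiquitin WT_warm and WT_cold overlapped WT_control. The part of RNA quality in the values of the pair was not tested.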

How the data were processed

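Per the labels' protocols, RNeasy-purified RNA of aerial parts was amplified with a MessageAmp kit and carried a biotin label. The values are log2 signals deposited by the authors, 1 column per array, and the tools named per the submitters' processing notes are GCRMA and limma, with no version or role. How arrays were centred is not stated there.

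Of 22810 probe sets, 64 array controls were left out. The platform annotation gave 1 gene to 13513 of the others, several to 503 and none to 8730, and only the first were named. Both genes of the pair were matched by locus. Groups came from the source names. The titles of MYB44 and MYB73 read MYB4 and MYB7.

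Probe sets with a log2 signal over 4 in at least 2 arrays were tested (15916). A single limma fit (version 3.58.1, R 4.3.3, lmFit and eBayes) held all 14 groups (14 residual degrees of freedom), with Benjamini-Hochberg adjustment within each comparison and a threshold of 0.05. The fit was tested on simulated data. Named are the pair, the 5 genes of highest r with each over the group means, and from each list up to 6 genes past the threshold or any measured member as a value. AT2G43660 in the neighbour order and the array pairs beside GRX480 and PDF1.2 were chosen after values were seen. The members and lists were chosen with earlier results of these data known.

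Replicate numbers were checked as pairs. The deviations of same-numbered arrays had r of -0.02 for WT_cold with WT_warm and -0.05 to 0.09 for lines with WT_control. Over all 91 pairs of groups, r ran from -0.35 to 0.18. The main fit did not pair arrays by number. Whether some same-numbered arrays were handled together was not tested. The alternatives were other controls, filters, normalization, variance priors, samples in the fit, the replicate block and leaving out arrays. Fitting the 2 sets of arrays apart was added after seeing the data. Promoter and protein sequences were not used here.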

Additional observations from a re-analysis of the deposited data

How the results depend on the processing

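The cold rise of AT2G43590 kept its direction under all 13 alternatives, from 0.77 to 2.33 on the log2 scale, and lost its call in 6. It was 1.12 with only the groups compared (adjusted p = 0.0589), 1.12 without the filter (adjusted p = 0.0763), 1.10 after quantile normalization (adjusted p = 0.0507), and 0.77 to 1.48 without 1 array. The highest value, 2.33, came with the WT_control arrays added to WT_warm, 4 in all. For AT2G43570 the cold difference ranged from -0.10 to 1.29 without 1 array, the sign turning without WT_cold replicate 1. The probe sets called in the cold numbered 4329, and 2799 to 2863 without 1 array, where fewer samples were fitted. The replicate block, which pairs arrays only by number, gave 4247, with adjusted p of 0.0465 for AT2G43590 and 0.771 for AT2G43570. Lines with AT2G43590 above both control arrays numbered 9, but 3 with WT_warm and 3 with all 4 WT arrays as control. For AT2G43570 the number stayed between 6 and 11. The share of all probe sets in that position was counted only against WT_control, so nothing is read from these numbers. Calls of list genes over the lines numbered 28, 78 with WT_warm as control, 50 with all 4 WT arrays, 52 when the spread was estimated without CRF3, 10 with the sets of arrays fitted apart (chosen after seeing the data), and 8 to 40 without 1 array, the 8 and 10 without WT_control replicate 1 or 2. Of 439 recomputed results for the 32 calls of single list genes, 298 were the same, 134 lost the call and 7 turned sign. With WT_warm as control, differences turned to -0.07 for AT2G43530 in HSFC1, 0.22 for AT2G43600 in HSFC1, 0.81 for AT2G43610 in CZF1, 0.41 for AT2G43610 in MYB44 and -0.35 for AT2G43630 in CZF1. The CZF1 values of AT2G43610 and AT2G43630 were also 0.81 and -0.35 with the sets fitted apart. The cause was not tested. Signals of AT2G43570 near 4 and below stand close to the floor, which limits differences there.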
